A study of Mus musculus with 3 samples.

Results

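Non-cycling B cells from the inguinal (groin) fat of mice were described in 2 single-cell RNA libraries. One library came from Tert wild-type mice (TERT +/+) and the other from Pdgfrb-Cre; TERT fl/fl mice (Pdgfrb-Cre below), in which Cre recombinase is driven by the promoter of Pdgfrb, a receptor of mesenchymal and mural cells. Tert is the reverse transcriptase of telomerase, and the series compared fat with and without it in progenitors of the mesenchyme. B cells are not the cells in which this driver is expected to act. The remaining library, of Pdgfra-Cre; TERT fl/fl mice, held only 26 such cells and is given beside the others as values. Members were chosen from their own counts of unique molecular identifiers (UMIs, each 1 captured RNA molecule). Barcodes were kept from 500 genes upward when no more than 15% of UMIs were mitochondrial. A kept barcode was a member with at least 4 UMIs over Cd79a, Cd79b and Ms4a1, no UMI of Cd3d, Cd3e or Cd3g, and at most 1 of 7 cell-cycle genes detected. There were 592 members among 2728 kept wild-type barcodes (21.7%, 95% interval 20.17 to 23.3) and 889 among 4033 kept Pdgfrb-Cre barcodes (22.04%, 20.77 to 23.35), 1481 of 6761 in all and from a series of 8186 kept barcodes. Each genotype was 1 library. The sources used here name neither the number, age and strain of the mice, nor which Tert exons the fl allele flanks, nor what PBS means in the wild-type sample title. Dead cells and red blood cells had been removed before loading. Genotype, strain, animal and library therefore cannot be told apart, no test between genotypes was possible, and each difference below is one between 2 libraries.

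B cells carry an antigen receptor made of a membrane immunoglobulin and the signalling chains CD79A and CD79B. Resting follicular B cells co-express IgM and IgD and take up antigen for presentation to CD4 T cells on major histocompatibility complex (MHC) class II. After activation they can switch isotype, enter germinal centres, become memory cells, or become plasma cells, which stop presenting antigen and secrete antibody. Adipose tissue holds B cells between its adipocytes, and an inguinal pad can also bring its lymph node. Whether node cells entered these libraries, and in equal parts, was not tested.

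The libraries held 13352288 and 30826733 UMIs, yet the members had similar depth, with medians of 3736 UMIs and 1238 genes per wild-type cell and 3429 UMIs and 1190 genes per Pdgfrb-Cre cell. The libraries shared 5 barcodes, of which 1 was a member in both. The gate lay nearer to the Pdgfrb-Cre cells: otherwise eligible barcodes with 3 gate UMIs, just outside, numbered 36 and 46 in wild type and Pdgfrb-Cre, those with 4, just inside, 15 and 69, and the median member had 14 and 9 gate UMIs. Barcodes left out for a Cd3 UMI numbered 60 and 48, and cycling B cells 35 and 17. A Y-linked UMI was found in 49.7% and 65.8% of members and no member of either library had an Xist UMI. Levels are in CPM, a gene's UMIs per 1000000 UMIs summed over a group of cells, and a ratio is that of 2 such CPM values with an exact interval. All intervals are at 95% and cover counting error alone, not the spread between cells or animals.

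The label held against its markers. Cd79a, the receptor's signalling alpha chain, stood at 1542 CPM (1493 to 1592) in wild type, 1273 CPM (1239 to 1308) in Pdgfrb-Cre and 1450 CPM (1295 to 1618) in Pdgfra-Cre, and was seen in 98.1%, 99.3% and 100% of members. Its partner Cd79b was at 1137, 407 and 704 CPM, and Ms4a1, which encodes the surface protein CD20, at 1028, 450 and 1177 CPM, in the same order. The gate used these 3 genes, so their presence is a description. Ighd, the IgD heavy chain, was not in the gate and was at 1052 CPM in wild type, 383 CPM in Pdgfrb-Cre and 45.5 CPM in Pdgfra-Cre. Conventional CD4 T cells of the same libraries (123 wild-type and 217 Pdgfrb-Cre cells) had 0 UMIs of Cd79a, Cd79b and Ms4a1, which their own gate required, and 4 and 1 UMIs of Ighd. The B lineage transcription factor Pax5, also outside the gate, was seen in 61.99% of wild-type and 53.2% of Pdgfrb-Cre members.

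Some members were not resting B cells. Those with at least 10 UMIs of Jchain, the chain that joins IgM and IgA into polymers and that secreting cells make in bulk, are called Jchain-high cells. This split was made after the data were seen. There were 4 in wild type (0.676% of members, 0.184 to 1.72) and 28 in Pdgfrb-Cre (3.15%, 2.10 to 4.52), and only 1 and 2 members lay just below with 5 to 9 Jchain UMIs. The 28 Pdgfrb-Cre cells held 20.4% of all UMIs of the Pdgfrb-Cre members, while the 4 wild-type cells held 2.43%. The Pdgfrb-Cre cells had a median of 26780.5 UMIs per cell (11723 to 60863). Immunoglobulin genes took 18.4% to 71.8% of these UMIs, with a median of 52.8%. Jchain, which chose the cells, is counted among the immunoglobulin genes in these shares. Jchain itself ran from 67 to 1756 UMIs per cell (median 383.5) and Igkc, the kappa light chain, from 428 to 34364 (median 8506). Of the 4 wild-type cells 1 was alike, with 62.4% immunoglobulin UMIs and 412 Jchain UMIs. The other 3 had 0.692%, 1.28% and 1.10% immunoglobulin, and 2 of them had only 10 to 19 Jchain UMIs.

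**Figure D1:**
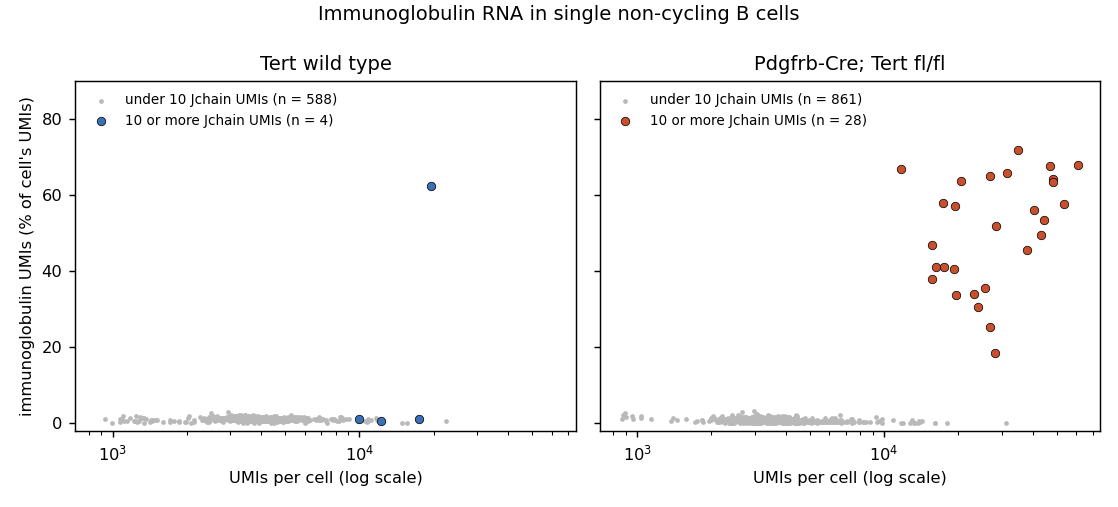
Share of each cell's UMIs from immunoglobulin genes (y axis, percent) against UMIs per cell (x axis, log scale) for all 592 wild-type (left) and 889 Pdgfrb-Cre (right) members. Jchain is counted among the immunoglobulin genes. Grey points have under 10 Jchain UMIs, coloured points 10 or more. The 28 Pdgfrb-Cre Jchain-high cells lie between 18.4% and 71.8%, and 1 of the 4 wild-type ones lies at 62.4%.

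Each of the 28 Pdgfrb-Cre Jchain-high cells had a single dominant heavy chain constant gene, with 96.2% to 100% of its constant-region UMIs from 1 isotype. That isotype was Ighg2c in 13 cells, Ighg2b in 7, Ighg1 in 6 and Ighm in 2, so 26 of 28 were IgG. The light chain was kappa in 27 and lambda in 1. A leading kappa variable gene with at least 10 UMIs could be read in 27 cells, and 16 different genes led, among them Igkv10-96 and Igkv15-103 in 4 cells each and Igkv5-39 in 3. Of these cells, 23 also had at least 10 UMIs of a leading heavy chain variable gene. Only 4 of these 23 cells, in 2 groups, shared kappa variable gene, heavy variable gene and isotype with another of the 23. Some variable genes are near-identical copies, so reads can be assigned between those wrongly. The plasma cell genes followed in the sum over all members: 12 of 12 plasma cell genes with at least 10 CPM were higher in Pdgfrb-Cre, with a median log2 ratio (10 CPM added to both sides) of 1.81, against -0.13 over all genes. Without the Jchain-high cells 3 of 7 were higher and the median was -0.03. The list holds Jchain, which chose the Jchain-high cells, so the change of that gene follows from the split.

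Slpi, which encodes a secreted inhibitor of leukocyte proteases, was almost wholly in these cells among the members. Pdgfrb-Cre Jchain-high cells had 0 to 7219 Slpi UMIs, with a median of 789 or 3.69% of a cell's UMIs and a highest share of 14.1%, and 25 of 28 had at least 10. Summed over all members it was 72.8 CPM in wild type and 10837 CPM in Pdgfrb-Cre, a ratio of 149 (128 to 174). In wild type 143 of the 177 Slpi UMIs lay in 1 cell, the Jchain-high cell with 62.4% immunoglobulin. Conventional CD4 T cells had 3.99 and 10.7 CPM. Ly6c2, a lymphocyte and monocyte surface protein, went the same way, at 3.70 and 154 CPM over all members, but its log2 ratio was -0.03 without the Jchain-high cells.

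Because 28 cells weighed this much, gene results are given for all members and for the 588 wild-type and 861 Pdgfrb-Cre members with under 10 Jchain UMIs, called remaining B cells. Of 2570 genes with at least 50 CPM in either library and at least 20 UMIs over both, 283 (11%) were higher by 2-fold or more in Pdgfrb-Cre members and 233 (9.07%) lower, 20.1% in either direction. Among the remaining B cells 371 of 2665 (13.9%) were higher and 184 (6.9%) lower, 20.8% together, so the share of higher genes among those past 2-fold moved from 54.8% to 66.9%. In conventional CD4 T cells of the same libraries 489 of 2595 (18.8%) were higher and 181 (6.97%) lower, 25.8% together. By this count the share was not larger in B cells than in CD4 T cells. The T cell sums held fewer UMIs, 752768 and 1213586 against 2371589 and 3297772 in the remaining B cells. Their ratios thus carry more counting error at the same CPM. With 1 library each there is no replicate check on any of these genes.

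Genes of B cell identity were lower in the Pdgfrb-Cre library, unevenly. Without the 3 genes of the gate, all 17 measured genes of this list were lower over all members (median log2 ratio -0.63). In the remaining B cells 16 of 17 were lower (median -0.35, against -0.02 over all genes), 3 of 17 by 2-fold or more beside the 6.9% of all genes. There Ly6d, a surface protein of the B lineage, was at 1267 and 544 CPM (wild type and Pdgfrb-Cre, the order kept below) and Ighd at 1079 and 481 CPM. The octamer-binding transcription factor Pou2f2 was at 288 and 141 CPM. The lineage factor Ebf1, at 2144 and 1961 CPM, differed by less than 1.2-fold. The gate genes, given as a description because their summed UMIs chose the cells, were at 1561 and 1527 CPM for Cd79a, 1125 and 442 CPM for Cd79b and 1017 and 536 CPM for Ms4a1.

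The light chain constant genes of the receptor were lower in Pdgfrb-Cre remaining B cells. Igkc was at 6451 and 4354 CPM, Iglc1 at 170 and 99.2 CPM, Iglc2 at 1200 and 390 CPM, and Iglc3 at 498 and 94.0 CPM. All 4 were lower, 1.48-fold for Igkc, 3.08-fold (2.88 to 3.29) for Iglc2 and 5.30-fold (4.68 to 6.03) for Iglc3, whereas summed over all members Igkc was 8.07-fold higher. Iglc2 and Iglc3 are near-identical copies, so their reads may be split wrongly. An Iglc2 UMI was seen in 91.2% of wild-type and 55.0% of Pdgfrb-Cre members, and in 63.7% and 29.9% after thinning each cell to 1000 UMIs (2 and 6 shallower cells left out). CD4 T cells had it in 3.25% and 0.922%, at medians of 5444 and 5123 UMIs. Kappa was the main light chain in both libraries. Of members with at least 10 light chain UMIs, lambda exceeded kappa in 22 of 551 wild-type (3.99%, 2.52 to 5.98) and 15 of 677 Pdgfrb-Cre cells (2.22%, 1.25 to 3.63). Cells with lambda at 80% or more of light chain UMIs numbered 2 and 8. Most wild-type cells thus held Iglc2 UMIs beside a larger number of Igkc UMIs.

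IgM and IgD heavy chain levels were both lower in Pdgfrb-Cre, and the ratio was larger for IgD. Ighm was at 1650 CPM (1598 to 1702) and 1368 CPM (1329 to 1409) in the remaining B cells, 1.21-fold lower (1.16 to 1.26), and was seen in 95.6% and 94.4% of them. CD4 T cells had an Ighm UMI in 39.8% and 24.4%, at 120 and 68.4 CPM, with up to 14 and 10 UMIs in a cell. Igkc was at 50.5 and 127 CPM there. Whether the Ighm UMIs of T cells are free RNA was not tested. Ighd was 2.24-fold lower (2.11 to 2.39). It was seen in 92.4% (89.9 to 94.4) and 73.4% (70.3 to 76.3), and after thinning in 64.5% and 39.3%. In CD4 T cells Ighd was seen in 3.25% and 0.461%. Cycling B cells, held apart by the gate, had Ighd in 5 of 35 and 5 of 17 cells.

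**Figure D2:**
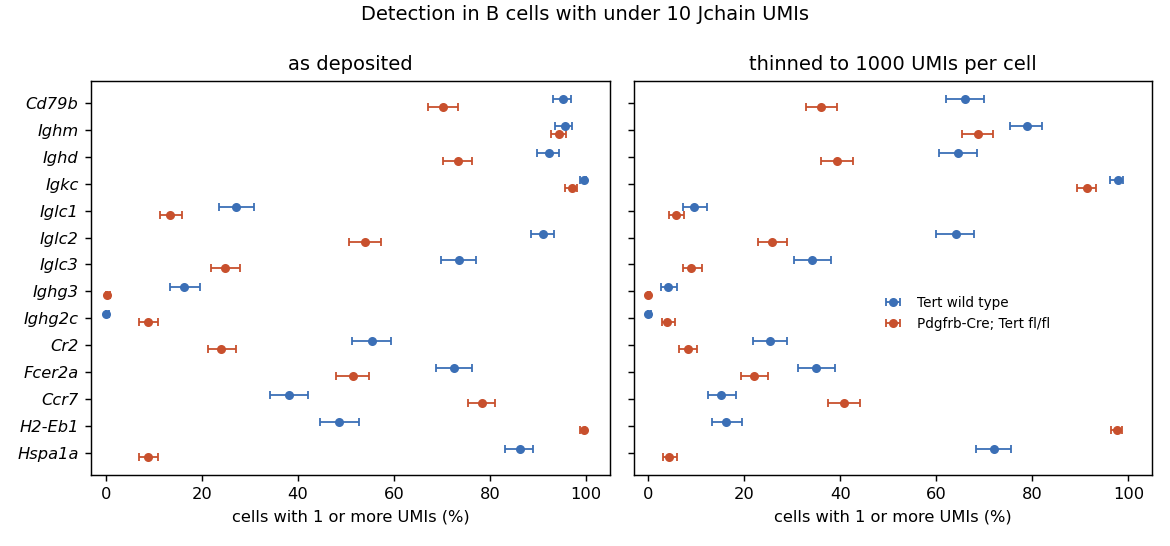
Share of remaining B cells (under 10 Jchain UMIs; 588 wild type, 861 Pdgfrb-Cre) with at least 1 UMI of each gene (x axis, percent), as deposited (left) and after thinning to 1000 UMIs per cell (right). Bars are exact 95% binomial intervals and cover counting error alone. Ighd, Iglc2, Iglc3, Cr2 and Hspa1a lie lower and Ccr7 and H2-Eb1 higher in Pdgfrb-Cre in both panels.

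Among the switched constant genes, Ighg3 was seen mainly in wild type, Ighg2c in Pdgfrb-Cre but not in wild type, and Ighg1 in both. At least 1 UMI of a switched constant gene was found in 27.7% (24.1 to 31.5) and 25.8% (22.9 to 28.8) of remaining B cells, and in 7.68% and 9.36% after thinning. CD4 T cells, which make no immunoglobulin, had one in 7.32% (3.40 to 13.4) and 17.97% (13.1 to 23.7). This share in T cells was higher in Pdgfrb-Cre, so the summed shares of the B cells cannot be compared as shares of switched cells. Ighg3 was seen in 16.3% of wild-type and 0.232% of Pdgfrb-Cre remaining B cells, at 56.5 and 0.910 CPM, 62.1-fold lower (20.8 to 305) in Pdgfrb-Cre, and in no CD4 T cell of either library. In wild type it was at 56.7 CPM in remaining B cells with an Ighd UMI and 53.9 CPM in those without. The share with Ighg3 is therefore not read as a share of switched cells. Ighg2c was seen in 0 of 588 wild-type cells and in 8.83% (7.02 to 10.9) of Pdgfrb-Cre cells, and over all members it had 0 UMIs in wild type and 51418 in Pdgfrb-Cre. That is 12407 CPM and, with the wild-type library set to a limit of 3 counts, at least 10052-fold higher. The 28 Jchain-high cells held 51335 of these UMIs, and the remaining B cells of Pdgfrb-Cre had Ighg2c at only 25.2 CPM. In the CD4 T cells of Pdgfrb-Cre Ighg2c was seen in 5.99%, close to its share in the remaining B cells. Ighg1 was seen in 11.7% and 11.3% of remaining B cells.

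The highest log2 ratio among the named genes of the remaining B cells, 4.59, was that of an MHC class II gene. H2-Eb1, the beta chain of the I-E molecule, was at 180 CPM (163 to 198) in wild-type and 4564 CPM (4492 to 4638) in Pdgfrb-Cre remaining B cells, 25.4-fold higher (23.02 to 27.98), and at 2799 CPM in the 24 Pdgfra-Cre cells. It was seen in 48.6% of wild-type, 99.5% of Pdgfrb-Cre and 95.8% of Pdgfra-Cre cells. After thinning the wild-type and Pdgfrb-Cre shares were 16.2% and 97.7%. CD4 T cells had it in 3.25% and 5.99%. Cycling B cells showed the same order, at 242 and 1500 CPM. Both libraries with a Cre allele, which are both also TERT fl/fl, were thus high and the wild-type library low. The Pdgfra-Cre group is mixed, since 14 of its 26 members had an Xist UMI and 8 had a Y-linked UMI, none with both.

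Other class II genes differed by less than H2-Eb1. With it, 9 of 11 were higher and 2 lower in Pdgfrb-Cre remaining B cells. H2-Aa and H2-Ab1, the chains of the I-A molecule, were at 3833 and 6485 CPM and at 3450 and 4816 CPM, which is 1.69-fold (1.65 to 1.73) and 1.40-fold (1.36 to 1.43) higher in Pdgfrb-Cre. The invariant chain Cd74 was at 9769 and 11038 CPM. Among the peptide-loading genes H2-DMb2 was at 317 and 319 CPM and H2-Oa at 241 and 167 CPM. Ciita, the master activator of the class II genes, was at 193 and 46.1 CPM, 4.19-fold lower (3.48 to 5.07) in Pdgfrb-Cre, and at 41.95 CPM in Pdgfra-Cre. Of the 10 class II genes compared, 1 was past 2-fold higher and 1 past 2-fold lower, near the 13.9% and 6.9% of all genes, and the median of 11 was 0.18 in the remaining B cells and -0.09 over all members. Jchain-high cells of Pdgfrb-Cre had H2-Eb1 at only 109 CPM.

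**Figure D3:**
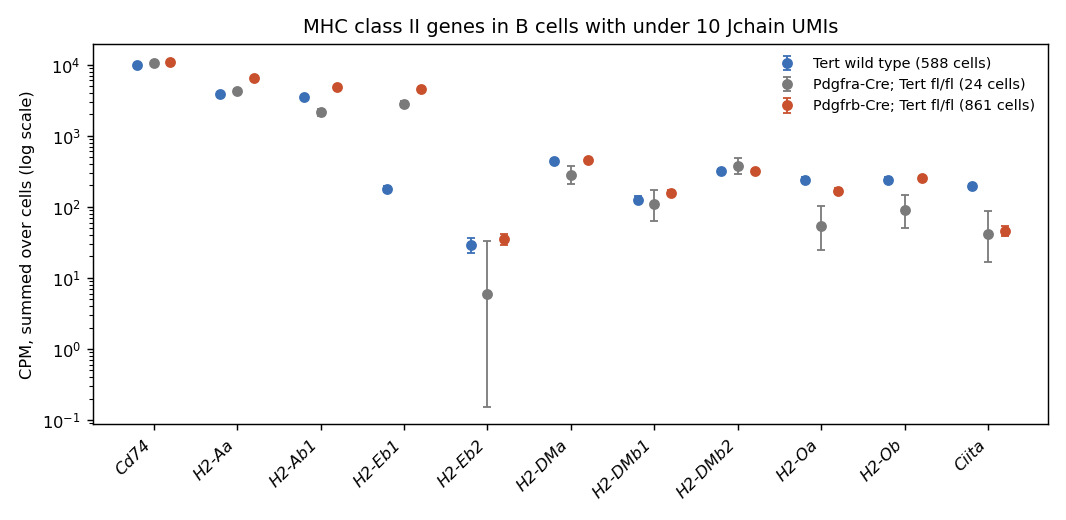
CPM (y axis, log scale) of 11 MHC class II pathway genes summed over the B cells with under 10 Jchain UMIs in each of the 3 libraries; bars are exact Poisson 95% intervals. H2-Eb1 lies at 180 CPM in wild type and at 2799 and 4564 CPM in Pdgfra-Cre and Pdgfrb-Cre, both TERT fl/fl, while Cd74 lies near 10000 CPM throughout and Ciita is highest in wild type. The Pdgfra-Cre cells include barcodes with Xist and barcodes with Y-linked UMIs.

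H2-Eb1 and H2-Aa lie in the MHC on chromosome 17, as do Hspa1a and Hspa1b, the heat-shock-inducible HSP70 genes that differed the other way. The 250 bases before the RefSeq start of each (GRCm38.p6) are shown because a 25.4-fold and a 1.69-fold difference sit beside each other in one pathway and a difference of the opposite sign lies in the same region. They are reference bases, not those of these mice. H2-Eb1 is at chr17:34305617-34305866 on the plus strand, H2-Aa at chr17:34287824-34288073 on the minus strand and Hspa1a at chr17:34972157-34972406 on the minus strand. Capitals mark CTGATTGG, a Y-box-type sequence holding an inverted CCAAT box, and in Hspa1a also a GAANNTTC match, 2 inverted units of a heat shock element. Hspa1b has its 250 bases identical to Hspa1a but for 3. Each of the 4 held CTGATTGG once, as did 3.83% of 32851 RefSeq promoters of this length on either strand. GAANNTTC was found once in Hspa1a, Hspa1b and H2-Aa, where it overlaps CTGATTGG by 1 base, and in 6.69% of promoters. A match is a description of these letters and not a site of binding.
H2-Eb1: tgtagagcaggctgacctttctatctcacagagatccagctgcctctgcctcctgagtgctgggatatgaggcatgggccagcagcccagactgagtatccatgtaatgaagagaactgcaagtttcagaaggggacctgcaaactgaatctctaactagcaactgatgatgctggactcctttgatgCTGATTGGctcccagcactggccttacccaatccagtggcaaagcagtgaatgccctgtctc
H2-Aa: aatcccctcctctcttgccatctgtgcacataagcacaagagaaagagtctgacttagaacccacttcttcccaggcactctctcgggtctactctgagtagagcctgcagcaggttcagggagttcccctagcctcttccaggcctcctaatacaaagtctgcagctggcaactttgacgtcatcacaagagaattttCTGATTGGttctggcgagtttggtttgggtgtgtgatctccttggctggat
Hspa1a: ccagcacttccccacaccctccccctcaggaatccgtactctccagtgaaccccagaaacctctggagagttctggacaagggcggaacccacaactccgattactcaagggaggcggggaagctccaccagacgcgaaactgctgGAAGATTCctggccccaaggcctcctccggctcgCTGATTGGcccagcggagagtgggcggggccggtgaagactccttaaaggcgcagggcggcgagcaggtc

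Inducible heat shock genes were lower in Pdgfrb-Cre B cells, and the constitutive Hspa8 and Hsp90ab1 were not. Hspa1a was at 2834 CPM (2766 to 2902) and 168 CPM (154 to 182) in the remaining B cells, 16.9-fold lower (15.5 to 18.5), and was seen in 86.2% and 8.71% of cells. Hspa1b, whose near-identical sequence can share its reads, was at 1431 and 91.0 CPM. The small heat shock gene Hspb1 was at 92.8 and 13.95 CPM, the co-chaperone Dnajb1 at 449 and 111 CPM and Hsph1 at 213 and 81.3 CPM. Hspa8 was at 1941 and 2366 CPM and Hsp90ab1 at 2116 and 2602 CPM. Of 13 heat shock genes compared 1 was past 2-fold higher and 5 lower, where 13.9% and 6.9% of all genes were. CD4 T cells of the same libraries were alike, with Hspa1a 28.2-fold (21.5 to 37.55) and Hspa1b 29.5-fold (19.7 to 46.02) lower. The Pdgfra-Cre members had Hspa1a at 54.5 CPM.

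A few genes were nearly absent from one library. Gdpd3, a lysophospholipase gene, had 542 UMIs in wild-type and 1 in Pdgfrb-Cre remaining B cells (229 and 0.303 CPM, a ratio of 754 with an interval of 135 to 29823), and 251 and 0 in CD4 T cells. Trim12a, a TRIM-family antiviral-type gene, had 0 UMIs and 221 UMIs, so was at least 52.98-fold higher in Pdgfrb-Cre at a limit of 3 counts in the wild-type cells, and had 0 and 67 in CD4 T cells. The Pdgfra-Cre cells followed Pdgfrb-Cre in both, with 0 UMIs of Gdpd3 and 10 of Trim12a. Only these 2 and the endothelial and adipocyte gene Rbp7 had at most 1 UMI in one library and at least 50 CPM in the other. Slamf1, a receptor shared by lymphocytes, had 724 and 22 UMIs, 45.8-fold lower (30.0 to 73.5) in Pdgfrb-Cre, but was at 47.8 and 66.7 CPM in CD4 T cells.

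Among the 14 genes with the highest ratios in the remaining B cells, Gpr132, a receptor of the lysolipid family, was at 7.17 and 167 CPM. The endosomal sorting gene Vps37b was at 89.8 and 913 CPM, the cyclic AMP response modulator Crem at 23.2 and 244 CPM, Stat4 at 28.3 and 251 CPM, and Fam107b at 83.5 and 556 CPM. These 5 were also at least 2-fold higher in Pdgfrb-Cre CD4 T cells. Litaf at 16.9 and 209 CPM and Plaur, the urokinase receptor, at 58.6 and 346 CPM were high in B cells while CD4 T cells had 9.30 and 12.4 CPM and 9.30 and 9.89 CPM. The metallothioneins Mt1 and Mt2 and the chemokine Cxcl1 were higher too, at 155, 94.6 and 119 CPM in Pdgfrb-Cre, but were seen in only 7.78%, 4.65% and 5.81% of those cells. Among the 14 lowest were Ms4a6c at 191 and 9.40 CPM, March1, a ubiquitin ligase that removes MHC class II from the surface, at 208 and 22.1 CPM, Il4i1 at 76.3 and 7.58 CPM and Pxdc1 at 202 and 34.3 CPM. Ms4a6c and Il4i1 were lower in Pdgfrb-Cre CD4 T cells too, at 86.35 and 14.01 CPM and at 67.75 and 0 CPM. March1 was at 1.33 and 0.824 CPM in CD4 T cells, and Pxdc1 there had the opposite order, 7.97 and 60.98 CPM.

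**Figure D4:**
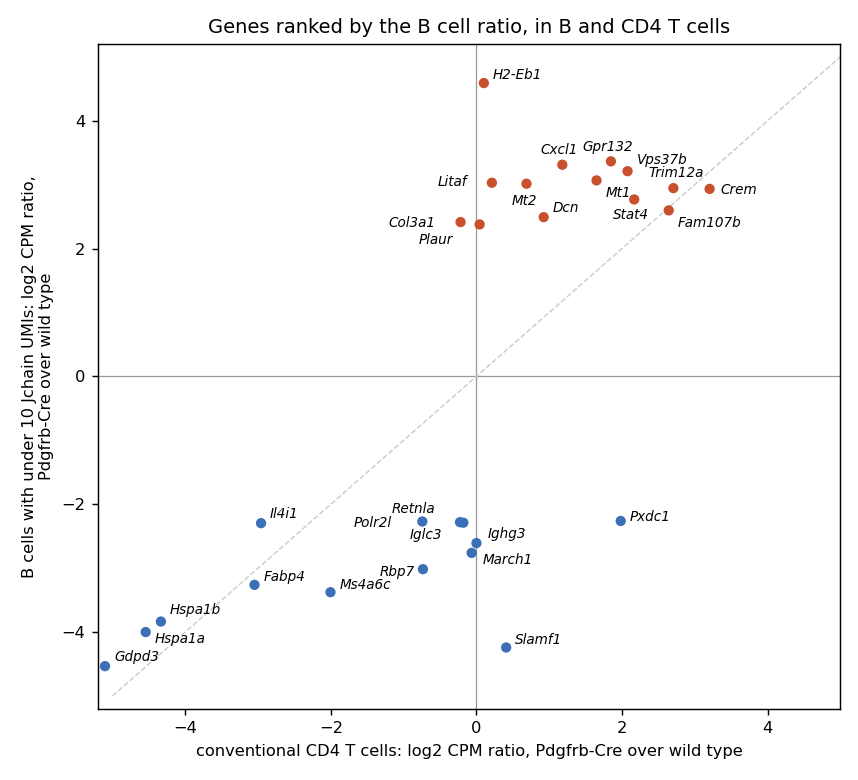
Log2 ratio of CPM (10 added), Pdgfrb-Cre over wild type, for the 28 genes with the highest and lowest ratios in B cells with under 10 Jchain UMIs (y axis) and the same genes in conventional CD4 T cells (x axis); the dashed line marks equal ratios. Gdpd3, Hspa1a, Hspa1b, Crem and Trim12a lie near the line, and H2-Eb1 and Slamf1 lie near 0 in T cells.

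Markers of other cells moved with some of these genes. Stromal markers summed to 336 and 1321 CPM over members, with 91.3% of the Pdgfrb-Cre UMIs in 10 cells, and endothelial markers to 971 and 101.6 CPM, with 75.5% of the wild-type UMIs in 10 cells. Dcn and Col3a1, both matrix genes among the 14 highest, and Fabp4, Rbp7 and Retnla among the 14 lowest belong with these values. Fabp4 was seen in 26.9% of wild-type remaining B cells, and 20 of the wild-type members held 91.0% of its UMIs. Col3a1 had a log2 ratio of -0.43 once barcodes with markers of another class were left out. Red cell markers summed to 82.3 and 1.93 CPM. The 5 T cell markers that no gate used (Trac, Trbc2, Lat, Il7r and Lck) summed to 49.4 and 23.7 CPM in members and to 2834 and 2427 CPM in CD4 T cells, and macrophage markers to 96.7 and 104 CPM. The part of these other cells in the remaining differences was not tested, apart from leaving such barcodes out, which kept the log2 ratio of H2-Eb1, Hspa1a, Slamf1 and Gdpd3 on the same side.

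Genes downstream of the antigen receptor were split. Of the 17 signalling genes outside the gate 10 were higher and 7 lower (median 0.08). None of 14 compared was past 2-fold higher and 2 were past 2-fold lower, where 13.9% and 6.9% of all genes were. Those 2 were Cr2, the complement receptor CD21 that lowers the threshold of the receptor, at 299 and 95.5 CPM, and the Ras exchange factor Rasgrp3 at 130 and 40.9 CPM. The kinases were closer, with Syk at 236 and 271 CPM and Lyn at 199 and 267 CPM. Over all members the median was -0.13. Among genes that restrain the receptor, the phosphatase Ptpn6 (SHP-1) was at 278 and 94.6 CPM, 2.94-fold lower (2.56 to 3.37) in Pdgfrb-Cre, and the lipid phosphatase Inpp5d (SHIP1) at 129 and 324 CPM, 2.52-fold higher (2.21 to 2.87). Ptpn6 was also lower in CD4 T cells (90.3 and 14.01 CPM). The kinase Csk at 173 and 83.7 CPM, Dok3 at 86.4 and 41.9 CPM and Siglecg at 249 and 138 CPM were lower. In that list 5 of 13 were higher and 8 lower.

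Receptors for help and survival were lower and activation-linked BCL2 relatives higher. Tnfrsf13b, the BAFF and APRIL receptor TACI, was at 135 and 28.2 CPM, 4.77-fold lower (3.78 to 6.08) in Pdgfrb-Cre remaining B cells. Cd40, which receives the signal of CD4 T cells, was at 99.1 and 23.1 CPM, 4.30-fold lower (3.31 to 5.65). The survival gene Bcl2 was at 127 and 56.7 CPM and the BAFF receptor Tnfrsf13c at 248 and 161 CPM. Bcl2a1d was at 17.7 and 87.0 CPM and Bcl2a1b at 232 and 441 CPM, 2 of a family of near-identical copies whose reads may be split wrongly. Bcl2 was lower and both Bcl2a1 genes higher in CD4 T cells as well, with log2 ratios of -1.35, 3.07 and 0.95. Of 9 genes compared in the list, 2 were past 2-fold higher and 3 lower, against 13.9% and 6.9% of all genes.

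The homing list went both ways, with 2 of 12 compared genes past 2-fold higher and 1 lower, where 13.9% and 6.9% of all genes were. Ccr7, which guides lymphocytes into and within lymph nodes, was at 181 and 578 CPM, 3.20-fold higher (2.88 to 3.57) in Pdgfrb-Cre, and was seen in 38.1% and 78.3% of the remaining B cells (15.2% and 40.8% after thinning). In CD4 T cells it was at 315 and 508 CPM. Ltb, the lymphotoxin chain with which B cells maintain follicular stroma, was at 768 and 170 CPM, 4.51-fold lower (4.10 to 4.97), and Lta at 27.8 and 6.37 CPM. CD4 T cells had Ltb at 632 and 297 CPM. The purinergic-family receptor P2ry10 was at 66.6 and 157 CPM. The follicle-homing receptor Cxcr5, at 69.6 and 81.6 CPM, and the egress receptor S1pr1, at 86.0 and 78.5 CPM, had ratios whose intervals held 1. In all, 5 of 17 genes were higher and 12 lower.

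Activation genes were mostly higher in Pdgfrb-Cre B cells. Without Jchain-high cells 15 of 17 activation genes were higher (median log2 ratio 0.77, against -0.02 over all genes). Of 12 compared, 4 were past 2-fold higher, where 13.9% of all genes were, and 1, Cd40, was lower. The costimulator Cd86 was at 78.0 and 243 CPM, 3.12-fold higher (2.65 to 3.68), and Cd83, which stabilises surface class II, at 405 and 845 CPM. In CD4 T cells Cd83 was at 34.5 and 37.1 CPM. Bhlhe40 was at 24.9 and 142 CPM in B cells and had a log2 ratio of 2.50 in T cells. The early marker Cd69 was at 355 and 454 CPM. Over all members and the other settings tried, the median of this list lay between 0.52 and 0.77.

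The NF-kB subunit Rel stood out within its list. It was at 472 and 2270 CPM in the remaining B cells, 4.81-fold higher (4.51 to 5.12) in Pdgfrb-Cre, and at 151 and 378 CPM in CD4 T cells. Nfkb1 was at 157 and 334 CPM and the brake Tnfaip3 (A20) at 62.4 and 136 CPM. In that list 11 of 14 were higher (median 0.61) and 3 of 12 compared were past 2-fold higher, beside 13.9% of all genes. CD4 T cells were alike, with 11 of 14 higher and a median of 0.87. There 7 of 13 compared were past 2-fold higher, beside 18.8% of all genes. Among immediate early genes the orphan receptors induced by antigen receptor signals were high, with Nr4a1 at 205 and 880 CPM, Nr4a3 at 35.0 and 188 CPM and Nr4a2 at 31.6 and 99.5 CPM. Jun, also an early gene, went the other way at 1211 and 377 CPM, 3.21-fold lower (3.01 to 3.44), while Junb at 1922 and 2410 CPM and Fos at 383 and 442 CPM were close. Jun had a log2 ratio of -1.55 in CD4 T cells too, and Nr4a1 one of 0.56 there against 2.05 in B cells.

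**Figure D5:**
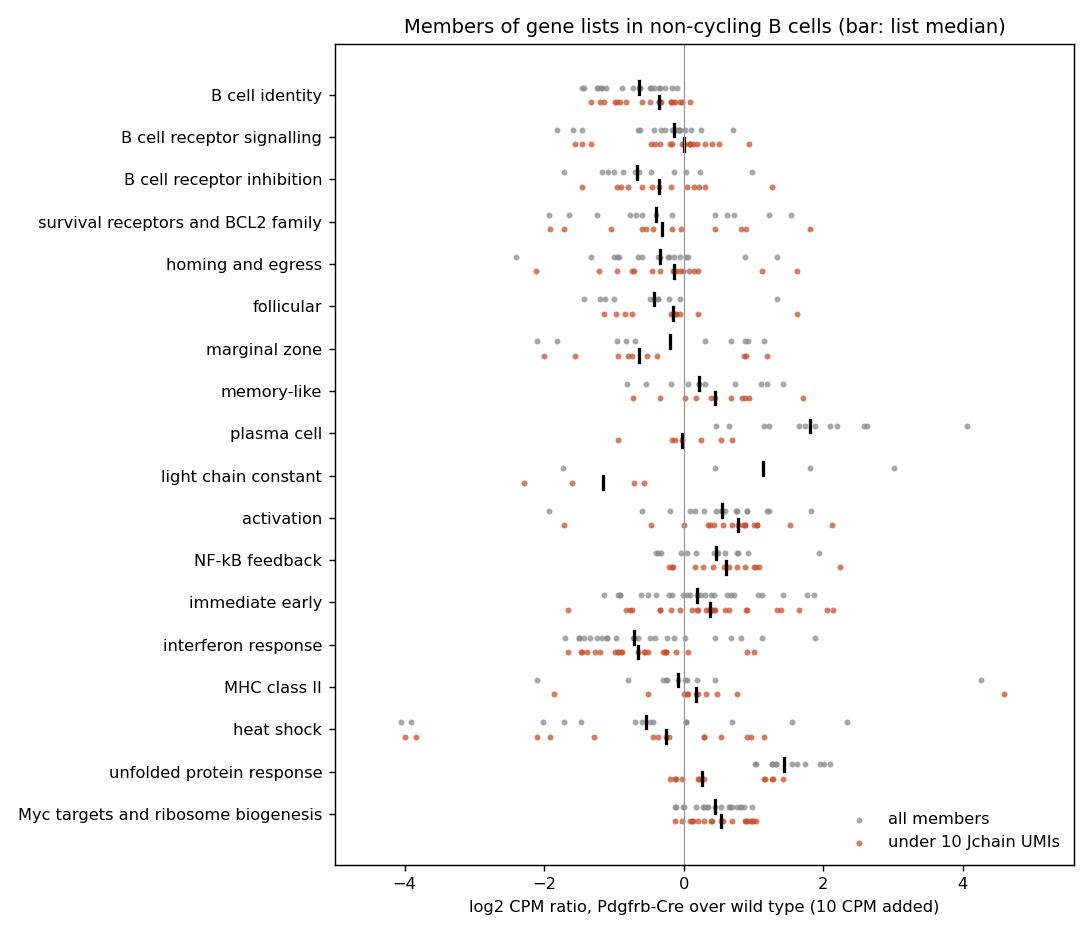
Log2 ratio of CPM, Pdgfrb-Cre over wild type (x axis, 10 CPM added), of each gene of 18 lists with at least 10 CPM in either library, over all members (grey; Igkc lies at 3.01 and H2-Eb1 at 4.26) and over B cells with under 10 Jchain UMIs (red); black bars are list medians, gate genes included. The plasma cell median goes from 1.81 to -0.03 and that of the light chains changes sign when Jchain-high cells are left out, and the activation and interferon lists keep their side.

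Interferon-response genes were lower in Pdgfrb-Cre. Among remaining B cells 20 of 23 measured genes were lower (median -0.65), and 4 of 9 compared were past 2-fold lower and 0 higher, beside 6.9% and 13.9% of all genes. Ifi27l2a was at 696 and 282 CPM, Trim30a at 89.8 and 33.4 CPM and Xaf1 at 35.0 and 4.25 CPM. In CD4 T cells 19 of 29 were lower with a median of -0.21. Of the MHC class I list the immunoproteasome subunits Psmb9 at 166 and 43.7 CPM and Psmb8 at 341 and 156 CPM were lower, in CD4 T cells too (log2 ratios -1.54 and -1.31). The heavy chain H2-D1, at 2752 and 2229 CPM, and B2m, at 1455 and 1524 CPM, were within 1.24-fold.

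Genes of the unfolded protein response, by which the endoplasmic reticulum meets a load of secreted protein, were 12 of 12 higher over all members, each past 2-fold where 11% of all genes were, with a median of 1.44. In the remaining B cells 8 of 12 were higher and the median was 0.26. The chaperones Hspa5 (BiP), at 468 and 1048 CPM, and Calr, at 234 and 573 CPM, the stress factors Atf4, at 222 and 511 CPM, and Ddit3 (CHOP), at 44.7 and 137 CPM, and the co-chaperone Dnajb9, at 85.6 and 223 CPM, were the 5 of 8 compared that were past 2-fold higher there, where 13.9% of all genes were. Xbp1, which drives the secretory programme of plasma cells, was at 37.1 and 36.1 CPM. CD4 T cells had log2 ratios of 1.36 for Hspa5 and 1.48 for Calr. Ribosome biogenesis and Myc-target genes were higher in 17 of 19 (median 0.53), with the helicase Eif4a1 at 248 and 517 CPM.

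Lists on division, energy and telomeres gave smaller values. Of the 11 measured proliferation genes that the cycling gate did not use, 8 were higher and 3 lower (median 0.30), with the centromere histone Cenpa at 55.7 and 167 CPM, the sliding clamp Pcna at 53.6 and 125 CPM and Stmn1 at 21.9 and 72.5 CPM, and all 3 were higher in CD4 T cells. Nuclear oxidative phosphorylation genes had a median of -0.11 over 23 genes. Of the 20 compared, none was past 2-fold higher and 1 was past 2-fold lower, where 13.9% and 6.9% of all genes were. Tert had 2 UMIs in the remaining B cells of each library. Of 12 measured telomerase and telomere genes 6 were higher and 6 lower, and the telomerase holoenzyme gene Dkc1, at 57.4 and 29.1 CPM, was the one of largest difference. Of the p53 targets 8 of 12 were higher, among them Cdkn1a at 21.5 and 59.7 CPM, which had a log2 ratio of 1.74 in CD4 T cells against 1.15 here. Of 7 glucocorticoid-responsive genes compared 5 were past 2-fold higher, the clock gene Per1 at 45.5 and 142 CPM, Tsc22d3 (GILZ) at 194 and 410 CPM, Klf9, Mt1 and Mt2, where 13.9% of all genes were. Mt1 and Mt2 were seen in few cells, as given above.

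Among subset genes, the follicular marker Fcer2a (CD23) was at 431 and 236 CPM and in 72.6% and 51.5% of remaining B cells, and in no CD4 T cell, and Cr2 in 55.4% and 24.0%. Of 11 follicular genes 9 were lower and 2 higher in Pdgfrb-Cre (median -0.15), Ccr7 being one of the higher. Of the marginal zone list the Notch-pathway gene Dtx1 was at 27.8 and 76.1 CPM, Mzb1 at 381 and 194 CPM, and Cd36, which endothelial cells also express, at 74.6 and 11.2 CPM. Of 4 measured B-1 genes 3 were higher and 1 lower (median 0.28), and over all members the median of 5 was 0.64, but -0.41 after thinning. Bhlhe41 of that list was seen in 11 wild-type and 41 Pdgfrb-Cre members, of which 1 and 17 were Jchain-high cells. Cd5 and Zbtb32 had 1 UMI at most in the members of either library. Immature-cell Cd93 was at 19.0 and 6.37 CPM. The germinal centre gene Rgs13 was seen in 10 wild-type and 4 Pdgfrb-Cre members. Of 5 measured germinal centre genes 2 were higher and 3 lower (median -0.53). The 2 compared were Basp1, at 16.4 and 56.4 CPM, and Lmo2, at 255 and 99.5 CPM. Of 11 memory-like genes 9 were higher (median 0.44), with S100a6 at 63.7 and 232 CPM. In CD4 T cells 7 of 11 were higher (median 0.70), with S100a6 at 163 and 350 CPM.

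Remaining B cells without an Ighd UMI, 45 in wild type and 229 in Pdgfrb-Cre, were set against the 543 and 632 Ighd-positive ones. Several genes were higher in the cells without Ighd in both libraries. Ighg2b was 7.49-fold higher (2.31 to 21.6) in wild type, at 40.4 against 5.40 CPM, and 6.93-fold higher (4.66 to 10.5) in Pdgfrb-Cre, at 104 against 14.98 CPM. Basp1 was at 216 against 3.15 CPM in wild type and 120 against 35.2 CPM in Pdgfrb-Cre. Rgs13 had 20 UMIs against 1 in wild type and 12 against 0 in Pdgfrb-Cre. Nt5e (CD73), a memory-like gene, was 9.99-fold (2.07 to 42.1) and 8.45-fold (3.18 to 26.2) higher, and the death receptor Fas 8.56-fold (1.84 to 33.7) and 3.28-fold (1.27 to 8.61). The wild-type cells without Ighd held only 4 UMIs of each of these genes. Other germinal centre genes did not follow: Bcl6 had ratio intervals that held 1 in both libraries, and Lmo2 was higher in neither beyond its interval. Ighg1 was at 317 against 27.9 CPM in wild type, while in Pdgfrb-Cre it was at 24.2 against 36.0 CPM with a ratio interval that held 1. The ratio intervals of Ighg3 in wild type (53.9 against 56.7 CPM) and Ighg2c in Pdgfrb-Cre (30.2 against 23.5 CPM) also held 1. S100a6 was at 243 against 51.7 CPM in wild type and at 151 against 259 CPM in Pdgfrb-Cre. Ahnak, Vim, Lgals1 and Anxa2 of the memory-like list changed order in the same way. Lgals1 was at 128 against 23.4 CPM in wild type and at 26.6 against 73.3 CPM in Pdgfrb-Cre. Cd44 of that list was higher in Pdgfrb-Cre cells without Ighd, at 59.2 against 33.6 CPM. Fcer2a was lower in the Ighd-negative cells of both. Median depth was 3032 and 3755 UMIs in wild type and 3242 and 3442 in Pdgfrb-Cre, so some cells may hold undetected Ighd. Ighd and its absence chose the cells, and a few cells carry Rgs13, so these are descriptions.

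The 26 Pdgfra-Cre members differed from both other groups in subset genes. Fcer2a and Cr2 had 1 UMI each, Ighd was seen in 6 of 26 cells, and Ighm was at 3356 CPM in the 24 remaining cells. Zbtb32, which marks B-1 and some memory B cells, had 13 UMIs in 8 cells against 0 in all 592 wild-type and 889 Pdgfrb-Cre members, and Bhlhe41, another B-1 gene, 14 UMIs in 6 cells. Plac8 was at 1013 CPM. Of these cells 2 were Jchain-high, with 920 and 847 Jchain UMIs, both IgM and both led by Igkv14-126 and Ighv11-2. Those variable genes are a pair known from B-1 cells that bind phosphatidylcholine. In all, 4 of 26 had UMIs of both, against 0 in the other libraries.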

How the data were processed

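Single cells of dissociated inguinal fat were captured with 10x Genomics 3' v3 chemistry and sequenced on a NextSeq 550, per the labels' protocols. The deposited files hold raw UMI counts per gene and barcode, which the authors made with Cell Ranger 3.1.0, STAR 2.6 and mm10, per the submitters' processing notes. From these counts members were gated on their own UMIs and summed per library with Python 3.11.15, numpy 2.4.6, scipy 1.17.1, pandas 2.3.3, scanpy 1.11.5 and matplotlib 3.10.9. Coordinates and annotation came from GENCODE M21, which held 99.62% of 31053 features. With 1 library per genotype no test was made. CPM has exact Poisson intervals, shares Clopper-Pearson intervals and ratios exact conditional binomial intervals, all at 95%, and a count of 0 was set to 3 counts for a bound. The scripts were tested on simulated data. No barcode was removed as a doublet in the main values. Named genes were the 14 highest and 14 lowest ratios whose interval lay wholly past 2-fold (mitochondrial, ribosomal, immunoglobulin variable, sex-linked and unnamed genes left out), and up to 5 members of each gene list with the largest differences. Other named genes were chosen after their values were seen. The members and lists were chosen with earlier results of these data known, and the split at 10 Jchain UMIs after seeing the data. Alternatives changed the gate, the cell filters, doublets, depth, scaling, pseudocount and CPM minimum.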

Additional observations from a re-analysis of the deposited data

Results flagged for a closer look

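The 26 Pdgfra-Cre barcodes in the B cell gate carried a signal that no comparison used. Xist, expressed from the inactive X chromosome of female cells, was seen in 14 of 26 (53.85%, 33.4 to 73.4), with 5 to 51 UMIs and a median of 10.5 in those cells. None of the 14 had a Y-linked UMI, and 8 of the 26 did. In the other 1399 kept barcodes of that library Xist was seen in 5 (0.357%, 0.116 to 0.832) and a Y-linked UMI in 939 (67.1%). The wild-type and Pdgfrb-Cre members had 0 cells with an Xist UMI, which at a limit of 3 counts allows a share of cells with a UMI of up to 0.507% and 0.338%. The values given for the 26 Pdgfra-Cre barcodes therefore come from barcodes with Xist and barcodes with Y-linked UMIs.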

How the results depend on the processing

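No paired analysis was possible because each genotype was 1 library, and for the same reason no replicate could be left out. The member share in wild type was 30.18% at a minimum of 1000 genes and 38.53% without barcodes carrying other class markers. In Pdgfrb-Cre these were 20.47% and 35.53%, and 18.3% with a gate of 6 UMIs. Genes past 2-fold over all members numbered 431 higher and 382 lower with mitochondrial, ribosomal and immunoglobulin genes (Jchain among them) left out of the total, 469 and 621 from 20 CPM, and 164 and 119 from 100 CPM. Leaving out Jchain-high members gave medians of -0.35 for B cell identity, 0.011 for receptor signalling, -0.032 for plasma cell genes and 0.26 for the unfolded protein response, and log2 ratios of -0.16 for Jchain, -0.025 for Ly6c2 and -0.57 for Igkc. Averaging over cells in place of summing gave -0.38, 0.041, 0.86 and 0.73 for the same 4 lists. Thinning to 1000 UMIs gave 0.61 for plasma cell genes, 0.82 for the unfolded protein response and -0.41 for the B-1 list, which was at 1.20 with 1 CPM added. Col3a1 was at -0.43 without barcodes of other class markers. Members with at least 3 UMIs of Ighd were 67.57% and 29.02% (wild type and Pdgfrb-Cre), of Iglc2 69.43% and 20.92% and of any switched isotype 3.72% and 4.39%. After thinning, shares with 1 UMI were 63.9% and 35.79%, 63.73% and 29.9%, and 8.48% and 10.42%. The reversals under Jchain-high members left out follow from removing the cells that hold those UMIs. The cause of the other shifts was not tested. The lists of B cell identity, receptor inhibition, activation, NF-kB feedback and interferon response kept the sign of their median in every setting tried. Leaving the gate genes out of their lists, chosen after seeing the data, moved no median past its interval. Depth limits Tert and Cd5, for which no difference between wild type and Pdgfrb-Cre was detectable.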

Other observations

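Slamf1 was unevenly spread among wild-type members. Of 592 cells 466 had no UMI, 79 had 1 to 4, and 47 had 5 to 41 and held 83.3% of its 730 UMIs. In Pdgfrb-Cre 23 of 889 cells had a UMI, at most 2 each, and in Pdgfra-Cre none of 26. The 47 high cells and the 465 cells at 0 with under 10 Jchain UMIs had medians of 3768 and 3726 UMIs. Among 2460 genes compared between them, 1 other gene, Bc1, had a ratio interval wholly above 2-fold, and 12 had one wholly past 2-fold lower, among them Fabp4, Rbp7, Cd36 and Plvap.

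Receptor variable genes recurred across isotypes among the Pdgfrb-Cre Jchain-high cells. Igkv10-96 with Ighv1-22 led 3 cells, 2 with Ighg2c and 1 with Ighm. Igkv15-103 with Ighv1-26 led 2 cells, 1 with Ighg2b and 1 with Ighg2c. Igkv14-130 with Ighv1-53 led 2 cells, both Ighg2c. Igkv5-39 with Ighv1-72 led cells with Ighg2b, Ighg1 and Ighg2b, at only 6, 8 and 4 Ighv1-72 UMIs. These cells were chosen after their values were seen, and shared variable genes do not show a shared rearrangement.

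All 4 Pdgfra-Cre cells with both Igkv14-126 and Ighv11-2 had an Xist UMI. Rgs13, a regulator of G protein signals in germinal centres, had 55 UMIs in 10 wild-type members, 5 of which held 85.5% of them. Among the 17 cycling B cells of Pdgfrb-Cre, outside the members, 1 held 2993 of 3200 Ighm UMIs.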
